A study of Mus musculus with 6 samples.

Results

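The 10 genes described here were listed for the making, activation and release of polyunsaturated fatty acids. They comprise 4 long-chain acyl-CoA synthetases (Acsl1, Acsl3, Acsl4 and Acsl5), the fatty acid desaturases Fads1 and Fads2, the elongase Elovl5, and the phospholipases A2 Pla2g6, Pla2g7 and Pla2g15. They were chosen by symbol from the 54347 gene rows of a deposited expression table. All 10 were found, each on a single row, and all 10 were among the 12652 genes with a mean of at least 1 TPM that were tested. TPM is an abundance per transcript length on a scale whose sum is 1000000 in every library. It carries no read numbers, and beyond the 20 M reads per library that the labels state, the depth behind each value is not known. In bulk RNA, fewer cells of a type and less RNA per cell cannot be told apart.

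RNA came from primary microglia of C57BL/6 mice, 3 libraries from Plcg2+/+ and 3 from Plcg2-/- littermates, where Plcg2 encodes phospholipase C gamma 2. Forebrains of pups aged 2 to 3 days gave mixed glial cultures in medium with 10% serum and 5 ng/mL of the myeloid growth factor GM-CSF. Microglia were shaken off on day 12 to 13 and kept for at least 72 h with 1% serum and 0.5 ng/mL GM-CSF, so both genotypes had the same growth factor and neither received another agent. The labels do not say that each library is a separate animal or culture, nor how the Plcg2-/- allele was made. Sex-linked transcripts, given below, differed among libraries of a genotype, which therefore did not all come from the same pups. The p-values take their error only from the spread between these libraries, part of which may be technical. A library is called by its genotype and number, such as Plcg2+/+ 1.

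Dietary polyunsaturated fatty acids are lengthened and desaturated in the endoplasmic reticulum, where FADS2 acts before ELOVL5 and FADS1 after it to yield arachidonate. Acyl-CoA synthetases join a fatty acid to coenzyme A, the form in which it enters phospholipids, and ACSL4 is known for its preference for arachidonate. Phospholipases A2 free the fatty acid at the middle carbon of the glycerol backbone, and eicosanoids can be made from freed arachidonate. PLCG2 acts on another bond of membrane lipids, releasing diacylglycerol.

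Plcg2 itself stood at 45.2, 39.7 and 54.9 TPM in the Plcg2+/+ libraries and at 16.0, 16.7 and 16.1 TPM in the Plcg2-/- libraries, which did not overlap (limma adjusted p = 0.00141). Mitochondrially encoded transcripts took 13.6 to 17.3% of TPM in Plcg2+/+ and 5.00 to 8.68% in Plcg2-/- libraries, and TPM of other genes are relative to that total. Xist, transcribed from an inactive X chromosome, stood at 50.5, 0.747 and 1.02 TPM in Plcg2+/+ 1, 2 and 3 and at 18.4, 49.4 and 40.2 TPM in Plcg2-/- 1, 2 and 3. The Y-linked gene Eif2s3y stood at 0.0447, 69.6 and 71.1 TPM and at 32.6, 0.167 and 0.621 TPM in the same order, so Plcg2-/- 1 held both transcripts and the sexes were unevenly spread over the genotypes. Of 10 microglia and macrophage markers 9 had a mean of at least 1 TPM, with a sum of 2389 to 3830 TPM in Plcg2+/+ and 2730 to 4486 TPM in Plcg2-/-. The macrophage receptor Csf1r was at least 502.5 TPM in every library, whereas the microglial markers Tmem119 and Cx3cr1 reached at most 1.47 and 2.92 TPM. The markers P2ry12, at 2.20 to 9.29 TPM in Plcg2+/+ and 18.9 to 27.7 TPM in Plcg2-/-, and Itgam, at 359 to 511 and 70.1 to 99.97 TPM, differed in opposite directions. Summed markers in Plcg2+/+ and Plcg2-/- libraries spanned 30.4 to 60.5 and 43.0 to 59.6 TPM for 8 astrocyte genes, and 50.0 to 116 and 47.6 to 84.9 TPM for 8 oligodendrocyte lineage genes. They spanned 3.83 to 14.4 and 5.37 to 11.6 TPM for 7 neuronal genes, 16.0 to 23.5 and 19.3 to 28.6 TPM for 5 endothelial genes, and 0.847 to 2.22 and 0.503 to 3.29 TPM for 7 fibroblast and mural genes. No marker of these lists was at 0 in every library, and each list's summed ranges overlapped between genotypes. Single markers did not all overlap. Of the 35 genes of other cell types, the endothelial Kdr (4.29 to 7.09 TPM in Plcg2+/+ and 16.0 to 24.1 TPM in Plcg2-/-) and the astrocyte Aldh1l1 (9.24 to 16.0 and 19.7 to 36.9 TPM) were higher in all 3 Plcg2-/- libraries. The endothelial Flt1 (9.34 to 16.0 and 2.80 to 4.32 TPM) and the oligodendrocyte lineage gene Cspg4 (6.72 to 13.1 and 0.239 to 0.821 TPM) were lower in all 3. Of the 10 microglia and macrophage markers, 5 were higher and 2 lower without overlap. Among all tested genes, groups did not overlap for 32.4% (Plcg2-/- higher) and 10.9% (Plcg2-/- lower). That set leaves out the markers with a mean below 1 TPM. The part of these cell types in the results below was not tested.

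Of the 10 genes, Acsl3 and Fads1 were lower in Plcg2-/- microglia and none was higher. Acsl3, a synthetase of the endoplasmic reticulum and lipid droplets, fell to a mean ratio of 0.578 of the Plcg2+/+ level, and Fads1, which makes the last double bond of arachidonate, to 0.741. Elovl5 and Pla2g6 had all 3 Plcg2-/- values below all 3 Plcg2+/+ values but did not pass the test on deposited TPM. The remaining 6 genes, which include the most abundant ones, had overlapping values. Over all tested genes, 15.6% were called higher and 5.31% lower at a limma adjusted p below 0.05, and groups did not overlap for 32.4% (Plcg2-/- higher) and 10.9% (Plcg2-/- lower). Thus 2 of 10 genes were called lower beside a background of 5.31%, and 4 of 10 did not overlap on the lower side beside 10.9%. The median log2 fold change was -0.31 over the 10 genes and 0.19 over all tested genes, on the log2(TPM + 1) scale, which understates changes of low values.

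**Figure D1:**
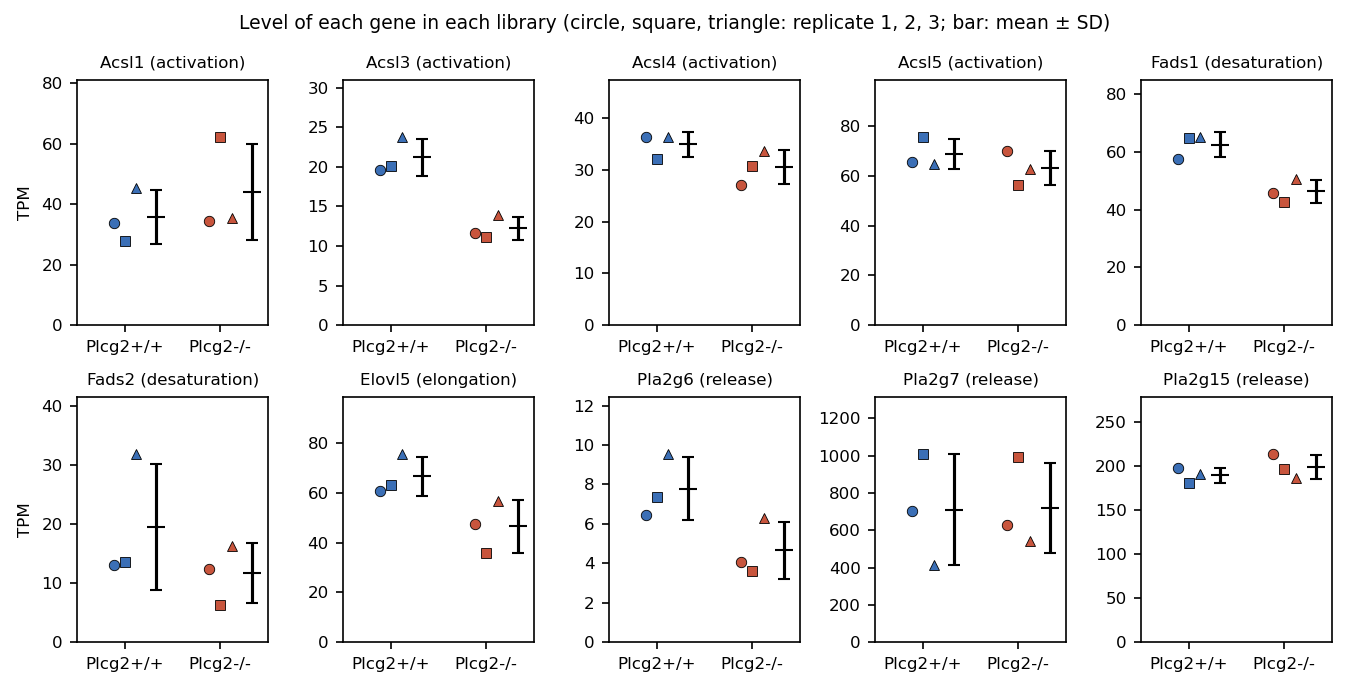
TPM of each of the 10 genes (y axis, from 0, a scale of its own per panel) in the 3 Plcg2+/+ (blue) and 3 Plcg2-/- (red) libraries; marker shape gives the replicate number, and the bar is the mean with its SD. Acsl3, Fads1, Elovl5 and Pla2g6 have no overlap between genotypes, while Pla2g7 spreads from 415 to 1009 TPM within Plcg2+/+.

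Scaling mattered for how many of these genes were called. The median of all tested genes, 0.19 in deposited TPM, was -0.0045 after median-of-ratios scaling, which sets a typical gene to equal levels in all libraries. All-gene calls then went from 1971 higher and 672 lower (74.6% higher) to 975 higher and 993 lower (49.5% higher). After that scaling Acsl3, Fads1, Elovl5 and Pla2g6 were all called lower, 4 of 10 beside 7.85% of all genes. Their limma adjusted p-values were 0.00315, 0.00970, 0.0240 and 0.0365. The same 4 genes were called when same-numbered libraries were treated as pairs in the fit, beside 6.44% of all genes called lower there. That pairing was read from these same values and not from a label. Rescaling without mitochondrially encoded genes left the calls at Acsl3 and Fads1, with limma adjusted p = 0.0501 for Elovl5 and 0.0600 for Pla2g6.

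**Figure D2:**
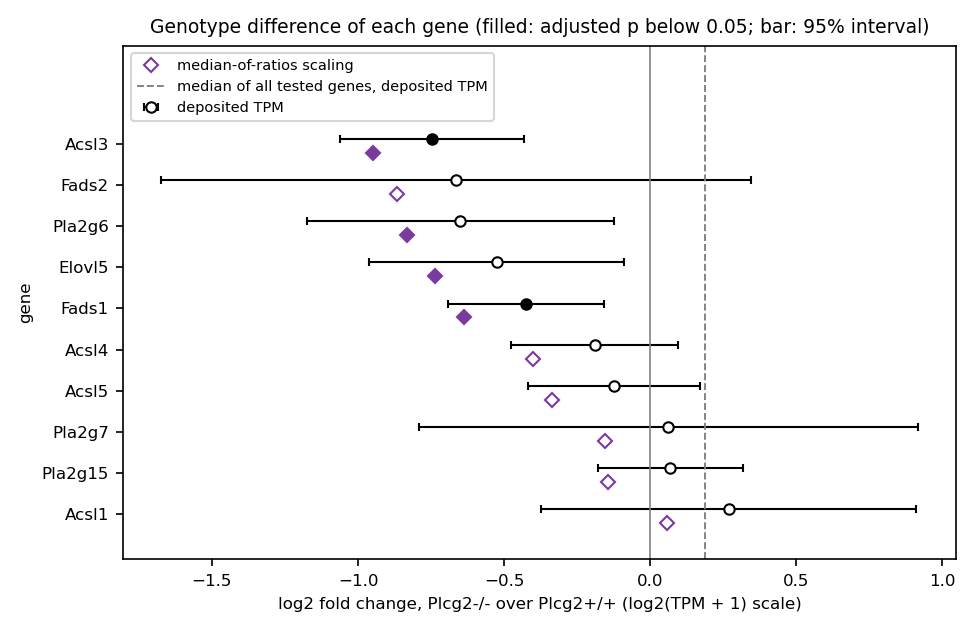
Log2 fold change of each gene, Plcg2-/- over Plcg2+/+ (x axis), on deposited TPM with its 95% interval (circles) and after median-of-ratios scaling (diamonds); filled symbols passed an adjusted p of 0.05 and the dashed line is the median of all tested genes. Acsl3 and Fads1 are filled on both scales, Elovl5 and Pla2g6 after scaling, and the intervals of the other 6 genes span 0.

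Promoter sequences are shown for Acsl3, Elovl5 and Pla2g6, the 3 genes without overlap that have an entry in the promoter table used. Each window runs from 250 bases before to 50 bases after a RefSeq start site in GRCm38.p6, written in the direction of transcription. Capitals mark CCAAT boxes (CCAAT, either strand), the binding motif of NF-Y, E-boxes (CACGTG), bound by upstream stimulatory factors among others, and matches to the interferon-stimulated response element (a pair of GAAA repeats 2 bases apart, either strand).
Acsl3 chr1:78657575-78657874, plus strand: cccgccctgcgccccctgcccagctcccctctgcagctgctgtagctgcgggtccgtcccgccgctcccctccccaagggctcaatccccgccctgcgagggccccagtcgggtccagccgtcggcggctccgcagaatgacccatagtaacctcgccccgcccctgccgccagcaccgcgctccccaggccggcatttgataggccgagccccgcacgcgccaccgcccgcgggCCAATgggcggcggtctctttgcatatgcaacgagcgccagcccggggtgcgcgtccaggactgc
Elovl5 chr9:77917115-77917414, plus strand: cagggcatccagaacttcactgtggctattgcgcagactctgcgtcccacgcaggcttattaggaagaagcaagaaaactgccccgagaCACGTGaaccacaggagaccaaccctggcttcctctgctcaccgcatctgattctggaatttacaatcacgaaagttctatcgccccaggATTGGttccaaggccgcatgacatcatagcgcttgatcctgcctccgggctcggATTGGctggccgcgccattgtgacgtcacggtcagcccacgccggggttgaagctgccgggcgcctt
Pla2g6 chr15:79328322-79328621, minus strand: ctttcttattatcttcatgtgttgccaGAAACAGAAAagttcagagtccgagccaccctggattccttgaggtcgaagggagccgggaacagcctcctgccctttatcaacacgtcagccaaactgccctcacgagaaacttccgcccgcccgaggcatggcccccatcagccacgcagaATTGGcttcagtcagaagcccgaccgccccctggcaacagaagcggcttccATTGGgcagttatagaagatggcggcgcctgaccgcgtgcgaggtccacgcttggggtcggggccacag
The Acsl3 window held a single CCAAT box starting at -15 from the start site, and those of Elovl5 and Pla2g6 held 2 each, at -71 and -17 and at -70 and -19. A CCAAT box occurred in 37.4% of all 32851 windows of this length and in windows of 6 of the 9 genes with an entry. These included Acsl1, Acsl5 and Pla2g15, whose values overlapped between genotypes. The E-box of Elovl5, at -161, has a match in 7.15% of all windows, and the interferon-stimulated response element match of Pla2g6, at -223, in 3.44%. A sterol regulatory element (TCACNCCAC, either strand), the motif of the SREBP factors that control Fads genes, was found in 1.24% of all windows and in none of the 3 shown. Of the 9 genes with an entry, Acsl1 alone held a match, at -76 in 1 of its windows. The Acsl3 window had 74.0% G and C bases and 5 GC boxes (GGGCGG, either strand), the Elovl5 window 57.7% and 0, and the Pla2g6 window 59.0% and 3 (of which 2 overlap), with a median of 52.7% over all windows. These matches are letters in a window and not measured binding sites.

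Among the 4 Acsl genes, Acsl5, a synthetase of mitochondria and endoplasmic reticulum, had the highest mean in both genotypes. Acsl3 (ENSMUSG00000032883.15, GRCm38 chromosome 1, 78657825 to 78707743, plus strand) had 19.7, 20.1 and 23.8 TPM in Plcg2+/+ 1, 2 and 3 and 11.7, 11.1 and 13.9 TPM in Plcg2-/- 1, 2 and 3. Every Plcg2-/- value was below the lowest Plcg2+/+ value, and the 3 same-numbered differences were close, at -0.70, -0.80 and -0.74 on the log2 scale. The means were 21.2 ± 2.29 and 12.2 ± 1.44 TPM (SD, n = 3 each), a log2 fold change of -0.75 ± 0.13 (SE; limma adjusted p = 0.0119, 95% interval -1.06 to -0.43). Without Plcg2-/- 1, the library with both Xist and Y-linked transcripts, the limma adjusted p was 0.0556 at a log2 fold change of -0.72. It was at most 0.0376 without any of the other 5 libraries, and 0.0461 when Y-linked expression was a term of the fit. Acsl3 overlaps Utp14b on the same strand, a gene with 0.862 to 1.76 TPM in these libraries.

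Acsl4 (ENSMUSG00000031278.12), the arachidonate-preferring synthetase, lies on chromosome X, 142317993 to 142390535, minus strand. It had 36.3, 32.1 and 36.4 TPM in Plcg2+/+ and 27.1, 30.8 and 33.7 TPM in Plcg2-/- libraries. The highest Plcg2-/- value exceeded the lowest Plcg2+/+ value, so the groups overlapped, although each Plcg2-/- library was below its same-numbered partner. The log2 fold change was -0.19 ± 0.12 (SE; limma adjusted p = 0.290, 95% interval -0.48 to 0.10), -0.40 after median-of-ratios scaling (limma adjusted p = 0.0536), and of the settings tried it was called only after quantile normalization (limma adjusted p = 0.0435).

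Acsl1, a synthetase that rises in activated macrophages, had 33.8, 27.9 and 45.4 TPM in Plcg2+/+ and 34.5, 62.3 and 35.3 TPM in Plcg2-/- libraries. The high value of Plcg2-/- 2 set the higher Plcg2-/- mean, and without that library the log2 fold change was -0.0050 in place of 0.27 (limma adjusted p = 0.506 with all libraries). Acsl5 (chromosome 19, 55251938 to 55297720, plus strand) had 65.6, 75.8 and 64.9 TPM in Plcg2+/+ and 70.0, 56.4 and 62.9 TPM in Plcg2-/- libraries, which overlapped. Its log2 fold change was -0.12 with a 95% interval of -0.42 to 0.17 (limma adjusted p = 0.498). The Acsl5 gene span overlaps that of Zdhhc6 on the opposite strand, at 35.7 to 36.6 TPM in Plcg2+/+ and 26.5 to 31.8 TPM in Plcg2-/- libraries. Whether their exons overlap was not examined. Reads from any shared stretch could be told apart only if the counting used strand, of which nothing is stated.

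The sum of the 4 synthetases was 161 ± 8.64 TPM in Plcg2+/+ and 149.9 ± 9.33 TPM in Plcg2-/- libraries (SD, n = 3 each). Shares of that sum do not depend on scaling between libraries. Acsl3 made up 12.6, 12.9 and 14.0% of it in Plcg2+/+ and 8.16, 6.93 and 9.51% in Plcg2-/- libraries, without overlap (difference -4.96 percentage points). A two-sided exact permutation test gave p = 0.1, below which a design of 3 against 3 cannot go, and 0.8 after Benjamini-Hochberg adjustment over 8 shares. The Acsl5 share was 43.0 ± 5.33% and 42.4 ± 6.89%, that of Acsl4 21.8 ± 1.43% and 20.4 ± 2.37%, and that of Acsl1 22.1 ± 4.38% and 29.0 ± 8.46% (SD, n = 3 each; exact permutation p = 1, 0.5 and 0.4). In 5 of the 6 libraries the order was led by Acsl5, with Acsl1 ahead only in Plcg2-/- 2, and Acsl3 was the lowest of the 4 in all 6.

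**Figure D3:**
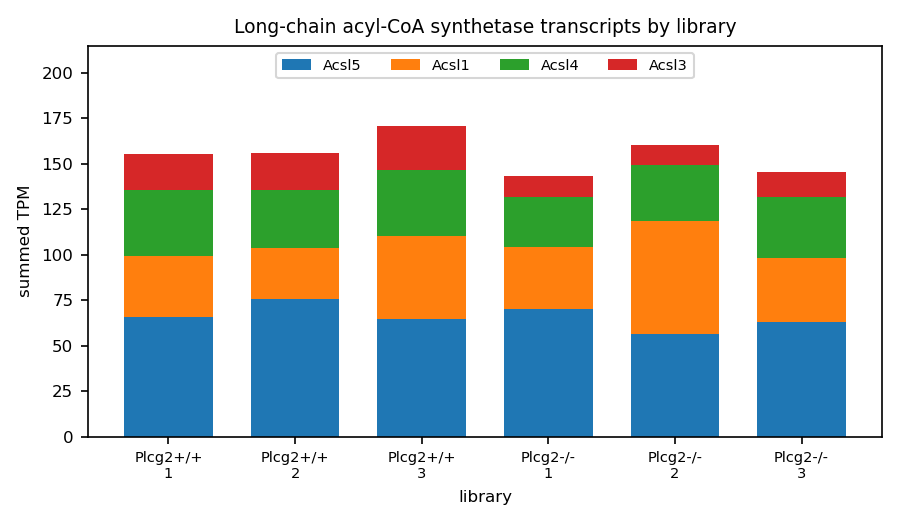
Stacked bars of TPM (y axis, from 0) of the 4 long-chain acyl-CoA synthetase genes in each library (x axis). The red Acsl3 segment is 19.7 to 23.8 TPM in Plcg2+/+ and 11.1 to 13.9 TPM in Plcg2-/- libraries, and the orange Acsl1 segment is largest, at 62.3 TPM, in Plcg2-/- 2.

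Desaturation and elongation genes were lower in Plcg2-/- by their means, with a called change only for Fads1. Fads1 (ENSMUSG00000010663.5, chromosome 19, 10182888 to 10196877, plus strand) had 57.4, 64.9 and 65.3 TPM in Plcg2+/+ and 45.9, 42.7 and 50.5 TPM in Plcg2-/- libraries. The groups did not overlap, and the same-numbered differences were -0.32, -0.59 and -0.37 on the log2 scale. The means were 62.5 ± 4.43 and 46.3 ± 3.91 TPM (SD, n = 3 each), a log2 fold change of -0.43 ± 0.11 (SE; limma adjusted p = 0.0387, 95% interval -0.69 to -0.16). The call rested on all 6 libraries, since leaving out any of them raised the limma adjusted p to between 0.0686 (without Plcg2-/- 3) and 0.129 (without Plcg2-/- 1). It was 0.0717, 0.104 and 0.0735 without Plcg2+/+ 1, 2 and 3, 0.0809 without Plcg2-/- 2, and 0.117 when Y-linked expression was a term of the fit. Without 1 library the Fads1 log2 fold change was -0.49 to -0.37. All-gene calls lower in those fits numbered 308 to 648, in place of 672.

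Fads2 (ENSMUSG00000024665.8), which starts the pathway, lies on the same chromosome, 10062765 to 10101746, on the opposite strand, and its start is 81142 bases from that of Fads1. It had 13.1, 13.6 and 31.9 TPM in Plcg2+/+ and 12.5, 6.26 and 16.4 TPM in Plcg2-/- libraries. Plcg2+/+ 3 stood far above its group, and the groups overlapped. The log2 fold change of -0.67 was nearly as large as that of Acsl3, but its SE was 0.43 (limma adjusted p = 0.296, 95% interval -1.67 to 0.34). It was -0.27 without Plcg2+/+ 3 and -0.31 without Plcg2-/- 2. As a share of Fads1 and Fads2 together, Fads2 made up 22.9 ± 8.61% in Plcg2+/+ and 19.6 ± 6.08% in Plcg2-/- (SD, n = 3 each; two-sided exact permutation p = 0.7).

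Elovl5 (ENSMUSG00000032349.13, chromosome 9, 77917364 to 77984519, plus strand) had 60.7, 63.2 and 75.5 TPM in Plcg2+/+ and 47.2, 35.6 and 56.5 TPM in Plcg2-/- libraries. No values overlapped, and the means were 66.5 ± 7.94 and 46.5 ± 10.5 TPM (SD, n = 3 each). The log2 fold change of -0.53 ± 0.18 (SE) had a 95% interval of -0.96 to -0.09, but the limma adjusted p was 0.0842. With same-numbered libraries as pairs it was 0.0378, beside 0.0402 for Fads1, 0.00874 for Acsl3 and 0.0729 for Fads2.

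Among the phospholipases A2 the least abundant gene stood apart by genotype and the 2 abundant ones did not. Pla2g6 (ENSMUSG00000042632.17, chromosome 15, 79286228 to 79328390, minus strand) encodes a calcium-independent enzyme whose loss in humans causes infantile neuroaxonal dystrophy. It had 6.46, 7.37 and 9.55 TPM in Plcg2+/+ and 4.07, 3.60 and 6.31 TPM in Plcg2-/- libraries. The highest Plcg2-/- value lay just below the lowest Plcg2+/+ value. The log2 fold change was -0.65 ± 0.22 (SE; limma adjusted p = 0.0795, 95% interval -1.18 to -0.12), and the limma adjusted p was 0.0265 with same-numbered libraries as pairs.

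Pla2g7 encodes a secreted enzyme that inactivates platelet-activating factor, and it had the highest level of the 10 genes, above that of 98.6% of tested genes by its mean. Its values were 705, 1009 and 415 TPM in Plcg2+/+ 1, 2 and 3 and 627, 993 and 540 TPM in Plcg2-/- 1, 2 and 3. Libraries numbered 2 were the highest and those numbered 3 the lowest in both genotypes, and the spread within a genotype was far wider than the difference between genotype means. The means were 709.8 ± 297 and 720.0 ± 240 TPM (SD, n = 3 each), a log2 fold change of 0.06 with a 95% interval of -0.79 to 0.92 (limma adjusted p = 0.916). With same-numbered libraries as pairs the SE went from 0.36 to 0.16, and the limma adjusted p was 0.789. The sign was negative after median-of-ratios scaling, at -0.15.

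Pla2g15, the lysosomal phospholipase A2, varied least, at 197, 180 and 190 TPM in Plcg2+/+ and 214, 197 and 186 TPM in Plcg2-/- libraries. The SD was 4.52% of the mean in Plcg2+/+ and 6.95% in Plcg2-/-. Values overlapped, and the log2 fold change of 0.07 had a 95% interval of -0.18 to 0.32 (limma adjusted p = 0.668), turning to -0.15 after median-of-ratios scaling. Within the sum of the 3 phospholipases A2, Pla2g7 took 76.5 ± 8.48% and 77.0 ± 5.35%, Pla2g15 22.6 ± 7.99% and 22.4 ± 5.13%, and Pla2g6 0.960 ± 0.516% and 0.548 ± 0.286% in Plcg2+/+ and Plcg2-/- (SD, n = 3 each; exact permutation p = 1, 1 and 0.4).

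Ordered by mean TPM, both genotypes gave the same sequence from Pla2g7 through Pla2g15, Acsl5, Elovl5, Fads1, Acsl1, Acsl4, Acsl3 and Fads2 to Pla2g6. In Plcg2+/+ the ranges of neighbours overlapped for Acsl5 and Elovl5, Elovl5 and Fads1, Acsl1 and Acsl4, and Acsl3 and Fads2. In Plcg2-/- they overlapped for Acsl5 and Elovl5, Elovl5 and Fads1, Fads1 and Acsl1, Acsl3 and Fads2, and Fads2 and Pla2g6. The other neighbours were apart in all 3 libraries of the genotype.

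Acsl3, Fads1, Fads2, Elovl5 and Pla2g6 ranked the libraries alike within each genotype. Each of these 5 genes was highest in Plcg2+/+ 3 and lowest in Plcg2+/+ 1, and highest in Plcg2-/- 3 and lowest in Plcg2-/- 2. Acsl4 was also highest in the libraries numbered 3, and Pla2g7 was lowest in them. All 3 same-numbered differences were below 0 for 6 genes, these 5 and Acsl4. No share over all tested genes was taken for this count. The 5 genes were grouped after their values were seen, 6 libraries carry few orders, and scaling of a library moves all its genes together, so this is a description only.

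**Figure D4:**
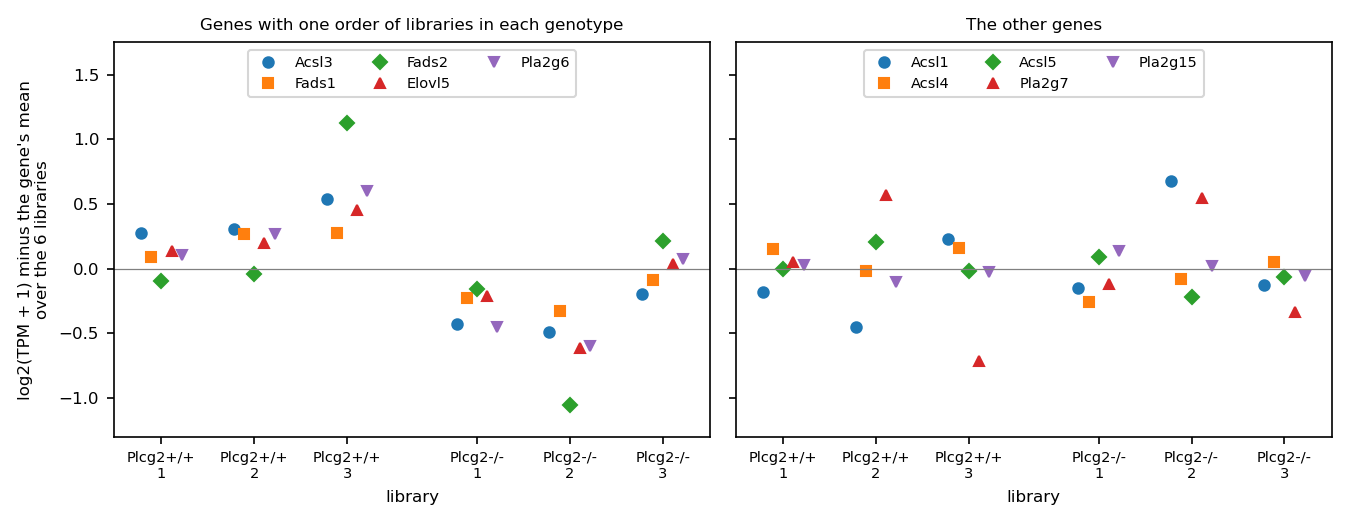
Log2(TPM + 1) of each gene minus its own mean over the 6 libraries (y axis) by library (x axis), for the 5 genes with a shared order of libraries (left) and the other 5 (right). On the left every gene is highest in the library numbered 3 of its genotype, and Fads2 has the widest range.

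The tested genes with profiles closest to Acsl3 over the 6 libraries, by the root mean square difference of centred log2(TPM + 1) values, were Bhlhe41 (0.049), Cav2 (0.065) and Snx7 (0.070). Acsl3 itself had a root mean square deviation of 0.39 from its own mean. Closest to Fads1, whose own deviation was 0.23, were Sec11c (0.051), Chst12 (0.054) and Osbpl7 (0.058). With 12652 genes and 6 libraries, close profiles are common, and these names describe the pattern only.

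Other genes of the same pathways were read from 8 lists chosen by function, 148 genes in the table of which 98 were tested. Of these, 15 were called higher and 13 lower, beside 15.6% and 5.31% of all tested genes. After median-of-ratios scaling these counts were 6 and 20, beside 975 and 993 of all 12652 tested genes. With same-numbered libraries as pairs, 19 genes of these lists were called higher and 15 lower, beside 2483 and 815 of all 12652 tested genes. Among 10 tested other acyl-CoA synthetases, 3 fell and 1 rose, beside 5.31% and 15.6% of all tested genes. After median-of-ratios scaling 4 genes of this list were lower and 0 higher, beside 993 and 975 of all 12652 tested genes. The fatty acid transport synthetases Slc27a1 and Slc27a6 fell from 80.9 ± 11.9 to 46.9 ± 2.60 TPM and from 33.4 ± 15.7 to 8.68 ± 1.21 TPM (SD, n = 3 each; limma adjusted p = 0.0105 and 0.0124), and both stayed below 0.05 without any 1 library. Of the acetyl-CoA synthetases, mitochondrial Acss1 fell by 1.12 and cytosolic Acss2 rose by 0.62 on the log2 scale (limma adjusted p = 0.0160 and 0.0182). Their limma adjusted p was 0.0633 and 0.0754 without Plcg2-/- 1 and 0.0531 and 0.0656 without Plcg2-/- 3, that of Acss2 0.0622 without Plcg2+/+ 1 and 0.0587 after median-of-ratios scaling.

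Of 11 tested desaturases and enzymes of the elongation cycle, 2 rose and 1 fell, beside 15.6% and 5.31% of all tested genes. A negative log2 fold change was seen for 9 of the 11, and for 32.5% of all tested genes. The dehydratases Hacd2 and Hacd4 rose from 16.8 ± 2.37 to 33.2 ± 3.58 TPM and from 25.0 ± 2.31 to 46.2 ± 4.55 TPM, while the elongase Elovl7 fell from 2.93 ± 0.239 to 0.809 ± 0.282 TPM (SD, n = 3 each; limma adjusted p = 0.00624, 0.00569 and 0.0115). All 3 calls held without any 1 library and after median-of-ratios scaling. Fads3, next to Fads2 on chromosome 19 at 10041569 to 10060110, had 3.10 ± 0.409 and 1.60 ± 0.423 TPM in Plcg2+/+ and Plcg2-/- without overlap (limma adjusted p = 0.0556). The stearoyl-CoA desaturase Scd2 had 373 ± 78.6 and 195 ± 78.2 TPM, also without overlap (limma adjusted p = 0.0733, and 0.0298 with same-numbered libraries as pairs). Fads3 and Scd2 were singled out after their values were seen. After median-of-ratios scaling 5 genes of this list were lower and 2 higher, and with same-numbered libraries as pairs 2 were lower and 2 higher.

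The list of other phospholipases A2, with 13 tested genes, also holds a lysophospholipase and subunits of a platelet-activating factor acetylhydrolase. Of these 13 genes 3 fell and 2 rose, beside 5.31% and 15.6% of all tested genes. With same-numbered libraries as pairs 3 were higher and 3 lower, beside 2483 and 815 of all 12652 tested genes. Pla2g4a, the cytosolic enzyme that frees arachidonate, was called higher there. It had 22.0 ± 3.17 and 33.9 ± 7.42 TPM in Plcg2+/+ and Plcg2-/- without overlap (SD, n = 3 each; limma adjusted p = 0.0717, and 0.0173 with pairs), and it was singled out after its values were seen. Abhd3, a phospholipase of medium-chain and oxidised phospholipids, fell by 0.94 and Pnpla7, a lysophospholipase, by 0.40 on the log2 scale (limma adjusted p = 0.0122 and 0.0372). Pafah1b1 and Pafah1b2, subunits of a platelet-activating factor acetylhydrolase unrelated in sequence to Pla2g7, rose by 0.44 and 0.85 (limma adjusted p = 0.0291 and 0.0377). After median-of-ratios scaling the limma adjusted p of these last 2 was 0.142 and 0.0640, and the list counted 3 lower and 0 higher. Without Plcg2-/- 1 none of the list was called (limma adjusted p = 0.0546 for Abhd3, 0.126 for Pnpla7, 0.118 for Pafah1b1 and 0.130 for Pafah1b2). All-gene calls in that fit also dropped, to 618 higher and 308 lower from 1971 and 672 with all libraries. Pnpla7 was called in 1, and Pafah1b1 and Pafah1b2 in 2 each, of the 6 fits that leave out a library.

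Fatty acid uptake and binding genes held the strongest changes of these lists, with 5 of 10 lower and 2 higher. The shares over all tested genes were 5.31% and 15.6%. Lpl, lipoprotein lipase, fell from 3343 ± 740 to 368 ± 62.0 TPM and the scavenger receptor Cd36 from 722 ± 222 to 107 ± 23.9 TPM. The fatty acid receptor gene Ffar4 fell from 6.98 ± 0.842 to 2.12 ± 0.828 TPM, while the fatty acid-binding protein gene Fabp3 rose from 21.4 ± 2.94 to 60.5 ± 18.3 TPM (SD, n = 3 each; limma adjusted p = 0.000717, 0.00166, 0.00775 and 0.00689). These 4 calls held without any 1 library and after median-of-ratios scaling. The median log2 fold change of this list was -0.80, beside 0.19 over all tested genes.

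Acyl-CoA thioesterases, which undo the synthetase step, counted 2 of 13 higher and 0 lower with the acyl-CoA binding proteins. The shares over all tested genes were 15.6% and 5.31%. Acot8, a peroxisomal thioesterase, rose from 22.1 ± 1.20 to 33.6 ± 2.73 TPM and Acot7 from 11.9 ± 1.61 to 18.0 ± 3.09 TPM (SD, n = 3 each; limma adjusted p = 0.0136 and 0.0476). With median-of-ratios scaling the limma adjusted p of Acot7 was 0.186, and the gene was called in 1 of the 6 fits that leave out a library, Acot8 in 4, with 0.0629 without Plcg2-/- 1 and 0.0533 without Plcg2+/+ 1. With same-numbered libraries as pairs 4 genes of the list were higher, beside 2483 of all 12652 tested genes. Of 15 tested transcriptional regulators of lipid genes, 2 were called higher and 0 lower, beside the same shares of all tested genes. The liver X receptor gene Nr1h2 and its partner Rxra rose by 0.32 and 0.50 on the log2 scale (limma adjusted p = 0.0458 and 0.0432). Neither was called after median-of-ratios scaling (limma adjusted p = 0.477 and 0.116) or without Plcg2-/- 1 (0.146 and 0.145). Nr1h2 was called in none of the fits that leave out a library and Rxra in 2. With same-numbered libraries as pairs only Rxra of this list was called. Srebf1, a regulator of Fads1 and Fads2, had 119 ± 23.6 and 99.8 ± 12.3 TPM in Plcg2+/+ and Plcg2-/- (SD, n = 3 each; limma adjusted p = 0.325). It was singled out as a known regulator of these genes.

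The list of peroxisomal beta-oxidation, the pathway that completes docosahexaenoate synthesis, counted 2 of 14 higher and 1 lower. The shares over all tested genes were 15.6% and 5.31%. The peroxisomal transporter gene Abcd3 rose by 0.50. Abcd4, the lower gene, encodes a lysosomal transporter of cobalamin and not an enzyme or transporter of this pathway, and it fell by 0.48 on the log2 scale (limma adjusted p = 0.0436 for Abcd3 and 0.0165 for Abcd4). After median-of-ratios scaling that of Abcd3 was 0.244 and the list counted 0 higher and 1 lower, and without Plcg2-/- 1 the limma adjusted p was 0.155 for Abcd3 and 0.0705 for Abcd4. With pairs, 4 genes of this list were higher and 1 lower, beside 2483 and 815 of all 12652 tested genes. Abcd3 and Abcd4 were called in 1 and 3 of the 6 fits that leave out a library. Ferroptosis is a cell death by peroxidation of the lipids that ACSL4 helps to make. The list named ferroptosis defence, which also holds Tfrc and Lpcat3, genes that promote such peroxidation, counted 2 of 12 higher and 0 lower. Beside these counts stand the same 15.6% and 5.31% of all tested genes. Tfrc, the transferrin receptor that imports iron, and Gch1, a defence gene needed for tetrahydrobiopterin, rose by 1.34 and 0.61 (limma adjusted p = 0.0147 and 0.0122). For Tfrc that was 0.0548 without Plcg2+/+ 1 and 0.0521 without Plcg2-/- 3, and for Gch1 0.0515 without Plcg2+/+ 1, 0.0597 without Plcg2-/- 1 and 0.0509 without Plcg2-/- 3. The peroxidase Gpx4 had 498 ± 61.9 and 456 ± 14.1 TPM (SD, n = 3 each; limma adjusted p = 0.528), and it was singled out as the best known gene of this list.

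**Figure D5:**
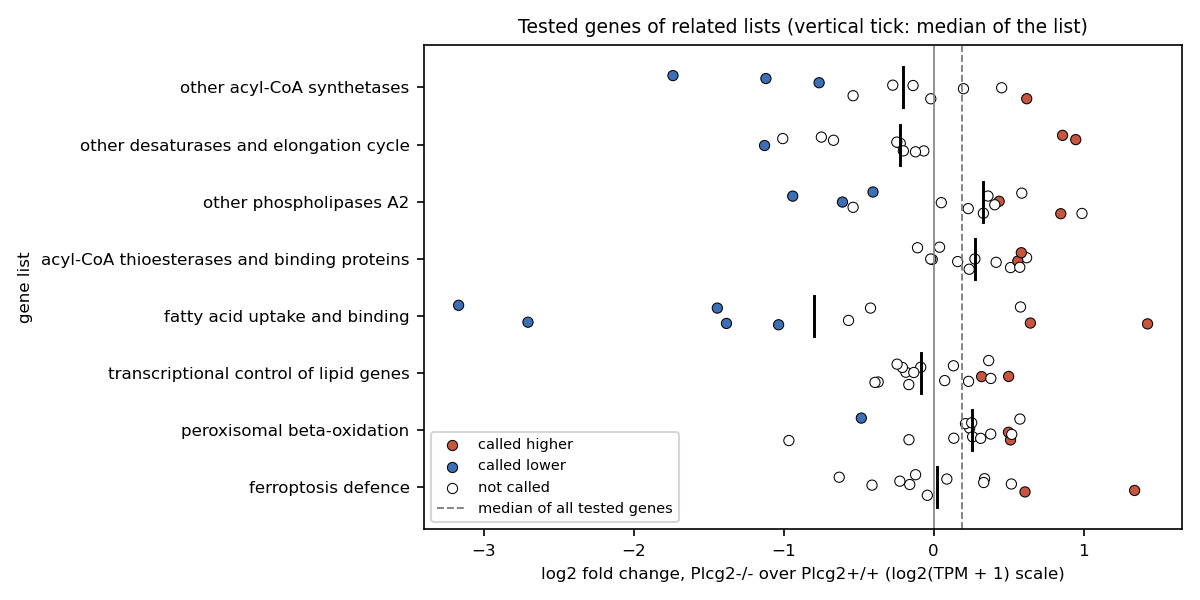
Log2 fold change, Plcg2-/- over Plcg2+/+ (x axis), of every tested gene of the 8 related lists (y axis); red and blue points were called higher and lower, white points were not called, the tick is the list's median and the dashed line the median of all tested genes. Fatty acid uptake and binding genes spread widest, from Lpl at -3.17 to Fabp3 at 1.43.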

How the data were processed

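RNA of 6 libraries, 3 Plcg2+/+ and 3 Plcg2-/-, grouped and numbered by their titles, was read from 1 table of TPM per gene that the authors deposited, with 54347 rows and a column per sample summing to 1000000. The submitters' processing notes name the build GRCm38.p6 and the tools R 4.0.4, DESeq2 1.30.1 and Salmon 1.3.0. Per the labels' protocols, polyA-selected libraries were read as 150-bp pairs. Which annotation and which step made the TPM is not stated. TPM keeps no depth, and no count model was fitted.

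Positions came from GENCODE M21 (GRCm38), in which 54094 identifiers matched. The 12652 genes whose mean TPM reached 1 were tested on log2(TPM + 1) by two-sided tests of limma 3.58.1 (R 4.3.3), with a prior variance that follows the mean; the residual degrees of freedom were 4 and those of the prior 2.97. Benjamini-Hochberg adjustment ran over all 12652 genes, and a gene with an adjusted p below 0.05 was called. The fit was tested on simulated data. Shares were compared by exact permutation tests over 20 assignments. Python 3.11.15, pandas 2.3.3, numpy 2.4.6, scipy 1.17.1 and matplotlib 3.10.9 were used.

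The members and lists were chosen with earlier results of these data known. Named genes were the 10 members, Plcg2, up to 4 called genes per list with the smallest p, and the 3 closest profiles to each called member; 1 gene named by this rule is not reported here. Promoters are from RefSeq (GRCm38.p6), with 9 of the 10 genes matched.

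Deviations from genotype means correlated at 0.295, 0.193 and 0.147 between libraries of the same number, all over 0.1. By that rule the numbers pair the libraries, a reading of the data and not of a label. Paired p-values therefore rest on a pairing taken from the same values and are no separate support for a call. Same-numbered libraries also differed in Eif2s3y, at 0.0447, 69.6 and 71.1 TPM in Plcg2+/+ 1, 2 and 3 and 32.6, 0.167 and 0.621 TPM in Plcg2-/- 1, 2 and 3. P-values are unpaired unless pairs are named. Pseudocounts, filters, scalings, prior variances, the replicate block, a Y-linked covariate and leaving out each library were tried.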

Additional observations from a re-analysis of the deposited data

How the results depend on the processing

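Over all tested genes, calls higher and lower in Plcg2-/- numbered 1971 and 672. Calls higher fell to 1226 with no filter, 975 with median-of-ratios scaling, 967 with quantile normalization, 1223 without mitochondrially encoded genes, 842 with the Y-linked covariate and 1104 with the replicate block and median-of-ratios scaling. Calls lower were 1029, 375 and 1127 with quantile normalization, the Y-linked covariate and the block with scaling. Leaving out 1 library gave 618 to 2150 higher and 308 to 648 lower. Of the 10 genes, 2 were called lower, against 1 with no filter, a constant prior variance or the Y-linked covariate, 4 with median-of-ratios scaling or the replicate block, 5 with quantile normalization or the block with scaling, and 0 to 1 without 1 library. In the related lists, 15 higher and 13 lower became 6 and 20 with median-of-ratios scaling, 9 and 20 with quantile normalization, and 5 and 22 with the block and scaling. Calls higher there were 9 without mitochondrially encoded genes and 7 with the Y-linked covariate, and leaving out 1 library gave 3 to 19 higher and 8 to 12 lower.

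Log2 fold changes without 1 library spanned -0.83 to -0.66 for Acsl3 and -0.49 to -0.37 for Fads1. Fads1 lost its call at -0.43 with no filter and with a constant prior variance (limma adjusted p = 0.0589 and 0.0583) and at -0.39 with the Y-linked covariate. Calls were gained by Acsl4 at -0.44 with quantile normalization, by Fads2 at -0.87 with the block and scaling (limma adjusted p = 0.0474), and by Elovl5 and Pla2g6. Elovl5 stood at -0.74 with median-of-ratios scaling, with and without the block, -0.81 with quantile normalization and -0.53 with the replicate block. Pla2g6 stood at -0.83, -0.78 and -0.65 in the same settings. The replicate block changed no other call of the 10 genes. Signs reversed only for genes that were never called: Acsl1 (-0.0050 to 0.45 without 1 library), Pla2g7 and Pla2g15. Pla2g7 was -0.15 with median-of-ratios scaling, with and without the block, -0.20 with quantile normalization, -0.0711 without mitochondrially encoded genes, -0.0003 with the Y-linked covariate and -0.28 to 0.36 without 1 library. Pla2g15 was -0.15, -0.19 and -0.0636 in the first 3 of these settings. Differences in share, in percentage points, reversed without 1 library for Acsl5 (-3.84 to 3.02), Pla2g7 (-3.90 to 4.52), Pla2g15 (-3.93 to 4.02) and Fads2 (-6.14 to 1.60), and for Pla2g7 with Pla2g4a in the sum (-0.353). The causes of these differences between settings were not tested. A fit that leaves 1 library out also has fewer libraries. TPM keeps no depth, so counting error cannot be separated from other spread.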
